A study of Mus musculus with 24 samples.

Results

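The molecular chaperones of 2 mouse cell lines are described here, by family, line and co-culture. The members are the protein-coding genes whose symbols name heat shock proteins of the Hspa, Hspb, Hspd, Hspe, Hsph and Hsp90 groups, J-domain proteins (Dnaja, Dnajb and Dnajc followed by a number) or subunits of the cytosolic chaperonin (Cct followed by a number, and Tcp1). There were 80 such genes among 22028 protein-coding genes of the annotation. Of these, 79 were protein-coding in GENCODE M21, and Cct6a, whose gene type there is processed transcript, was included because RefSeq lists it as protein-coding. Members with at least 1 read numbered 51 of 7557 genes with reads in NSC34 and 74 of 15439 in C2C12.

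The lines were NSC34, a motor-neuron-like hybrid line labelled as motor neuron, and C2C12, a myoblast line that can form myotubes. Both were of WT genotype. Each line was either co-cultured with the other for 3 days or kept without co-culture as the control, with 6 libraries in each of 4 groups and 24 libraries in all, sequenced on a Nanopore MinION from total RNA. How NSC34 and C2C12 cells were separated for extraction is not stated in the labels. Nor is it stated whether replicates were separate cultures, so that p-values measure the spread between these libraries, which may be technical.

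Chaperones bind unfolded proteins and help them to fold, to assemble or to be handed on for degradation. Hsp70 proteins work in cycles of ATP hydrolysis that J-domain proteins start and exchange factors such as Hsp110 end, and Hsp90 acts later, on clients such as kinases and steroid receptors. The cytosolic chaperonin CCT is a double ring of related subunits that folds actin and tubulin, the Hsp60 and Hsp10 pair does the same work for imported mitochondrial proteins, and small heat shock proteins hold unfolded proteins without using ATP. In muscle, Hsp90 and the co-chaperone Unc45b fold the myosin motor, and several small heat shock proteins are abundant. Heat shock factor and the unfolded protein response of the endoplasmic reticulum (ER) raise many of these genes through short promoter elements.

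Promoters are shown for 4 members around which the results below are ordered, as RefSeq gives them for GRCm38.p6, from 250 bases before the gene start to 50 bases after it. Hspb1, the small heat shock protein that separated the lines, lies at chr5:135887669-135887968 (plus strand). Hsp90b1, the ER form of Hsp90, lies at chr10:86705395-86705694 (minus strand), and Hspa5, the ER form of Hsp70 also called BiP, lies at chr2:34771840-34772139 (plus strand). Hspe1, the mitochondrial Hsp10, lies at chr1:55087898-55088197 (plus strand). Capitals mark the letters of a heat shock element (GAANNTTCNNGAA) or of an ER stress element (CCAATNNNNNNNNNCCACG), searched on both strands.
Hspb1: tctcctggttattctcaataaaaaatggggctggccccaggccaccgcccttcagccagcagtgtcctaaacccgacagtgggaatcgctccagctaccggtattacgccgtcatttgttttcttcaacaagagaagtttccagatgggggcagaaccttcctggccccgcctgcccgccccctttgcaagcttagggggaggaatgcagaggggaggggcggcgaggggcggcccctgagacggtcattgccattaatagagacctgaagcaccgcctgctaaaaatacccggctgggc
Hsp90b1: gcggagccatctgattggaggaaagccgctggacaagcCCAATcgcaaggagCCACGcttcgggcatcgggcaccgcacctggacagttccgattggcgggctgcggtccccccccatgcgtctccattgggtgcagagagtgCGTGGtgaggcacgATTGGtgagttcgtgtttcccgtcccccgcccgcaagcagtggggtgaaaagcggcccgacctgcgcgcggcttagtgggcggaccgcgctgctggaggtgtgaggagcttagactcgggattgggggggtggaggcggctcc
Hspa5: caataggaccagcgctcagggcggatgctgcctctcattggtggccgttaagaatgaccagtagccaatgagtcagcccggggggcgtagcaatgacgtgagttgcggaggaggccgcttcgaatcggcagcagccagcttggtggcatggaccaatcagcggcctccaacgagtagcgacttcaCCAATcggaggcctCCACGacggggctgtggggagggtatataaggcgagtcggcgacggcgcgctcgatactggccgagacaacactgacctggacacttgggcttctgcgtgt
Hspe1: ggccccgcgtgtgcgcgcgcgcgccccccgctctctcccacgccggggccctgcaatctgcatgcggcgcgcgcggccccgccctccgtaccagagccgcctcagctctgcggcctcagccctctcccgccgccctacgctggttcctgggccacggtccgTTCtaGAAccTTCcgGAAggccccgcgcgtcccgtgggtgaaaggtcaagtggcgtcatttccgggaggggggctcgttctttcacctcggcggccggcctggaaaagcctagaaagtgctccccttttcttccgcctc
The heat shock element was present in 0.662% of 27025 genes with a promoter in the table and in 4 of 66 matched members, Dnajb6, Hspd1, Hspe1 and Hsph1 (6.06%). The ER stress element was present in 0.137% of genes and in 3 of 66 members, Dnajc3, Hsp90b1 and Hspa5 (4.55%). In Hsp90b1 the element began 107 and 212 bases upstream of the start, in Hspa5 65 bases upstream, and in Hspe1 a pair of overlapping heat shock elements began 84 and 89 bases upstream. Hspd1 and Hspe1 are transcribed away from each other, and 285 of the 300 bases of the Hspe1 window are also in a window of Hspd1. The letters of neither motif are in the Hspb1 window. Promoters of 14 members were not matched, Hsp90aa1, Hsp90ab1 and Hspa8 among them.

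Depth differed between the lines. NSC34 libraries held 88 to 30314 reads each (70865 in all, 42.8% of them in co-culture replicate 2), and C2C12 libraries held 121154 to 658075 (3309635 in all). A count of 0 therefore allows up to 42.3 counts per 1000000 reads (CPM) over all NSC34 libraries and up to 0.906 CPM over all C2C12 libraries, taking 3 reads over the line as the floor. All 15 genes of a muscle marker list had reads in C2C12, where the list held 2.02 ± 0.06% of reads in co-culture and 1.83 ± 0.14% in control (SD, n = 6 each). Of a neuronal list of 20 genes, Uchl1, Prph and Stmn3 had reads in NSC34. Uchl1 alone held 72 of the 153 list reads in co-cultured and 14 of 42 in control NSC34. The cholinergic genes Chat and Slc18a3 had 1 and 0 reads there, and Mnx1 (a motor neuron factor), Map2, Nefm and Rbfox3 had 0. Stmn2 had 0 reads in NSC34, but 193 in co-cultured and 176 in control C2C12. Neuronal markers with reads numbered 12 of 20 in each NSC34 group and 13 of 20 in each C2C12 group. The list held 0.278% of pooled reads in co-cultured and 0.265% in control NSC34, beside 0.0454% and 0.0513% in co-cultured and control C2C12. Of the muscle list, Chrna1 had 17 reads in co-cultured and 3 in control NSC34, Tnnt1 had 2 and 1, Mb and Mef2c had 1 each in co-culture and Myh3 had 1 in control. The other 10 muscle genes, Myod1, Myog and Acta1 among them, had 0 reads in NSC34. The muscle list held 0.0382% of pooled reads in co-cultured and 0.0315% in control NSC34. In bulk RNA, fewer cells of a type and less RNA per cell cannot be told apart.

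In C2C12 the chaperones together took 1.01 ± 0.01% of all reads in co-culture and 1.10 ± 0.10% in control (SD, n = 6 each). The co-cultured libraries lay between 0.9999% and 1.035%, within the control range of 0.996% to 1.25%. A few genes carried the total: Hsp90ab1, Hspa8, Hspb1 and Hspe1 held 42.9% of the 35642 chaperone reads. By reads the order was Hsp90ab1 (5900 reads), Hspa8 (3875), Hspb1 (3490) and Hspe1 (2015). Divided by transcript length, the order was Hspb1 (1167 CPM per kb), Hspe1 (786), Hsp90ab1 (708) and Hspa8 (489). If each long read stands for 1 transcript, that division favours short transcripts, so the second order need not be one of levels. The first J-domain gene on the divided scale was Dnajc19, a part of the mitochondrial import motor (263 CPM per kb). Dnaja1 had more reads (1737 against 722). The 8 CCT genes that were tested lay close together, between 61.1 CPM per kb for Tcp1 and 124 CPM per kb for Cct4.

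Within families the reads were uneven. Hsp90ab1, the constitutive cytosolic Hsp90, held 71.2% of Hsp90 reads, Hspa8, the constitutive Hsc70, 55.0% of Hsp70 reads, and Hspb1 73.8% of small heat shock protein reads. Dnaja1, a cytosolic partner of Hsp70, held 79.4% of DnaJA reads, and Dnajb6, a J-domain protein that restrains aggregation and is mutated in a limb-girdle muscular dystrophy, held 58.1% of DnaJB reads. The stress-inducible Hspa1a and Hspa1b had 7 reads together among 3309635, and since they share 2201 bases at 99.2% identity those reads cannot be assigned to either with certainty. Members without a C2C12 read were Cct8l1, Dnajb3, Dnajb8, Dnajb13, Dnajc6 and Dnajc22.

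Of the 80 members, 35 passed the filter on low counts in C2C12 and entered the test of co-culture against control, which ran over 2570 genes. These 35 held 95% of the chaperone reads. The other 39 members with reads had 2 to 144 reads each, with a median of 36. None of the 35 passed at an edgeR adjusted p under 0.05, where 1.44% of all genes tested did (21 or 0.817% higher and 16 or 0.623% lower). At an unadjusted p under 0.05 there were 7 members (20%), 2 with positive and 5 with negative fold changes, against 14.7% of all genes. The members' median log2 fold change was -0.10, beside 0.00 for all genes, and 24 of 35 (68.6%) were below 0, beside 49.5% of all genes.

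**Figure D1:**
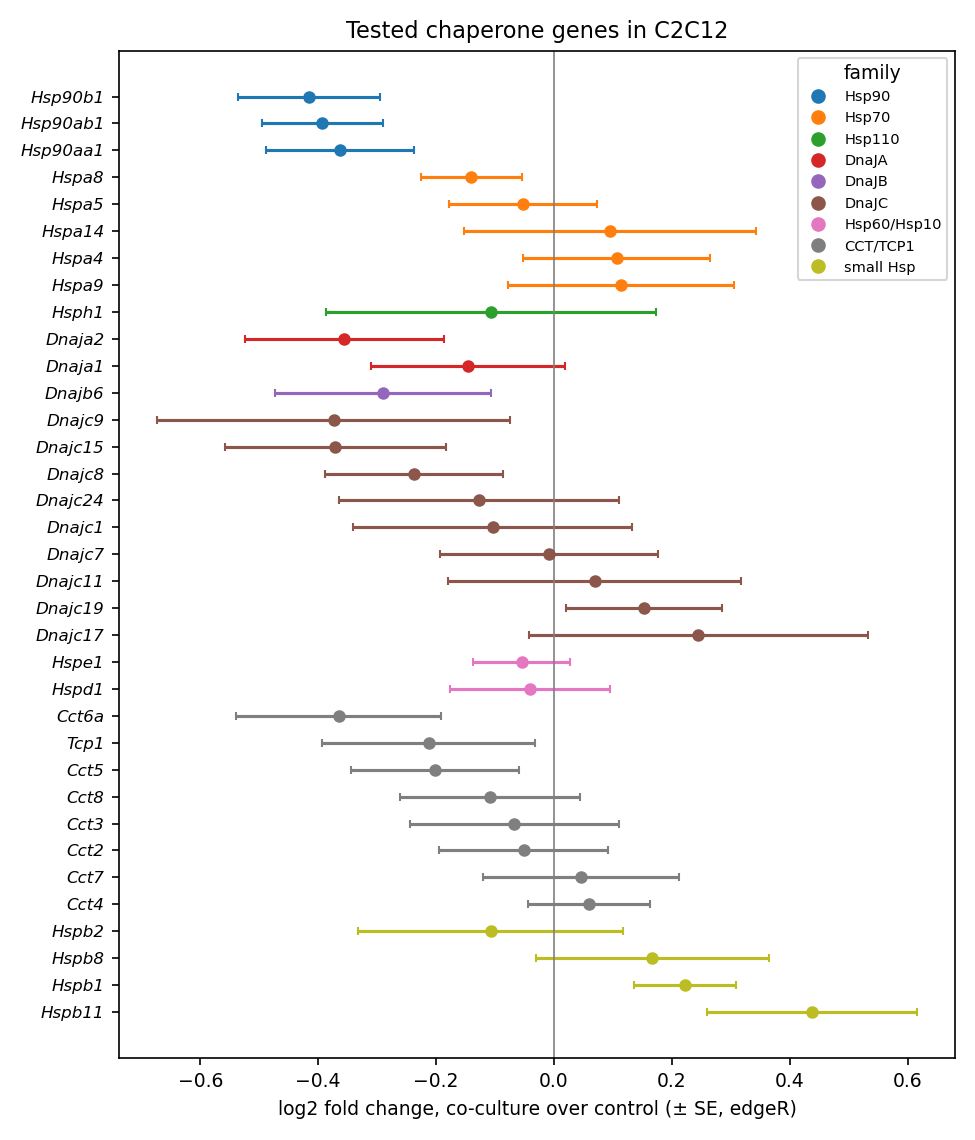
Log2 fold change (co-culture over control, horizontal axis) of the 35 tested chaperone genes in C2C12, with edgeR standard errors as bars and colours for families. The 3 Hsp90 genes lie between -0.42 and -0.36, Hspb1 and Hspb11 lie to the right of 0, and no gene passed the test over all genes.

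The Hsp90 genes had the smallest p-values among the members. Hsp90ab1, the abundant cytosolic form (chr17:45567775-45573271, GRCm38), had 1343, 1526 and 1583 CPM (lowest, median, highest) in co-cultured C2C12 and 1494, 1886 and 2415 CPM in control C2C12. Co-cultured libraries sat in a narrow band, 2 of them below all controls and 4 at the low end of the control range, and control replicates 1, 2 and 3 held the highest values, at 2002, 2415 and 2401 CPM. Its log2 fold change was -0.39 (SE 0.10, unadjusted p = 0.00097 and edgeR adjusted p = 0.052) and did not pass. It passed under DESeq2 (adjusted p = 0.039) and with library totals for scaling (edgeR adjusted p = 0.046). It also passed when control replicate 4, 5 or 6 was left out (edgeR adjusted p = 0.028, 0.024 and 0.040). Those controls held its lowest control values, at 1494, 1600 and 1770 CPM, so leaving 1 out raises the control mean. In the other 17 of 22 alternative settings it did not pass, with an edgeR adjusted p of 0.18 with no filter.

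Hsp90b1, the ER form whose promoter is shown above (gene at chr10:86690209-86705509), had 265, 324 and 348 CPM in co-cultured C2C12 and 352, 380 and 565 CPM in control C2C12. By CPM of all reads, all 6 co-cultured libraries were below all 6 controls, the nearest pair being 348 and 352 CPM. On that scale it was the only tested member whose groups did not overlap, 1 of 35. Of all genes tested, 0.661% lay wholly below their controls and 1.05% wholly above. With the TMM scaling of the edgeR test the Hsp90b1 groups overlapped, with co-culture replicate 3 at 396.5 and control replicate 5 at 395.9 CPM. The log2 fold change was -0.42 (SE 0.12 and edgeR adjusted p = 0.075). It passed only when control replicate 5 was left out (edgeR adjusted p = 0.047).

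Hsp90aa1, the stress-inducible cytosolic form (chr12:110690605-110702728), had 236, 308 and 380 CPM in co-cultured C2C12 and 345, 388 and 417 CPM in control C2C12. Co-culture replicates 4 and 6 reached the control range and the other 4 co-cultured libraries lay below it. The log2 fold change was -0.36 (SE 0.13 and edgeR adjusted p = 0.15). Together the 3 genes took 0.211 ± 0.007% of reads in co-cultured C2C12 and 0.274 ± 0.049% in control C2C12 (SD, n = 6 each). Every co-cultured library had an Hsp90 share at or below 0.220%, and every control had 0.222% or more, a narrow gap. How often the shares of other gene sets separate these groups was not counted.

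**Figure D2:**
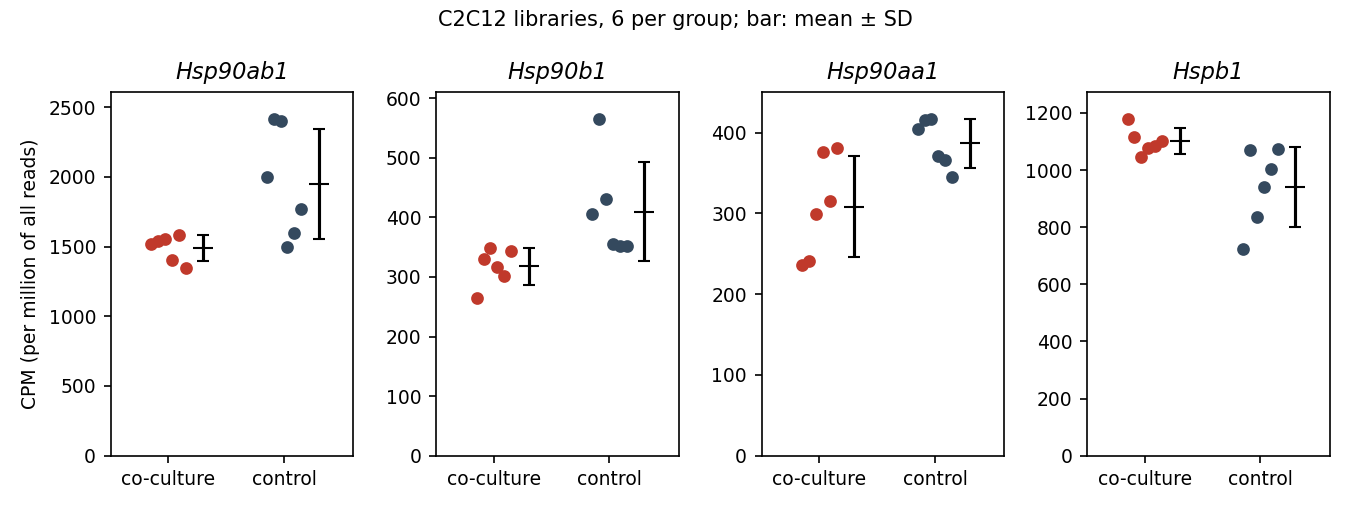
CPM of Hsp90ab1, Hsp90b1, Hsp90aa1 and Hspb1 in the 6 co-cultured (left) and 6 control (right) C2C12 libraries, with mean and SD as bars. Co-cultured libraries lie in a narrow band at and below the low end of the controls for Hsp90ab1 (1343 to 1583 CPM), lie wholly below them for Hsp90b1, and lie at and above the high end for Hspb1 (1045 to 1179 CPM). With the TMM scaling of the edgeR test, the Hsp90b1 groups overlapped.

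The fold changes of all genes moved with transcript length: Spearman's rho between log2 fold change and transcript length was -0.28 across the 2570 genes, which are not independent replicates, and -0.27 across the 35 members. The tested Hsp90 genes had read-weighted lengths of 2517 to 3151 bases, beside a median of 1945 bases for all genes tested. With the length trend removed, the log2 fold changes were -0.37 for Hsp90ab1, -0.37 for Hsp90b1 and -0.30 for Hsp90aa1 (edgeR adjusted p = 0.069, 0.11 and 0.22). The share of the muscle marker list, given above, also differed between the groups, and its part in these values was not tested.

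Small heat shock proteins took 0.148 ± 0.011% of reads in co-cultured C2C12 and 0.126 ± 0.016% in control C2C12 (SD, n = 6 each). Hspb1, known in mouse as Hsp25, binds unfolded proteins and actin filaments. It had 1045, 1093 and 1179 CPM in co-cultured C2C12 and 723, 972 and 1074 CPM in control C2C12 (chr5:135887919-135889563). The groups overlapped at their edges, since control replicates 2 and 6 exceeded the lowest co-cultured library. Its log2 fold change was 0.22 (SE 0.09 and edgeR adjusted p = 0.22), and 0.17 with the length trend removed.

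Hspb11, which despite its name is a part of the intraflagellar transport machinery of cilia (Ift25), had 114, 132 and 153 CPM in co-cultured C2C12 and 58.6, 91.3 and 134 CPM in control C2C12. Control replicate 2 was the only control inside the co-cultured range. The log2 fold change was 0.44 (SE 0.18 and edgeR adjusted p = 0.23). Hspb2, a muscle small heat shock protein that binds the myotonic dystrophy kinase, had 27.9, 115 and 152 CPM in co-cultured C2C12 and 66.0, 129 and 142 CPM in control C2C12. The groups overlapped widely, and co-culture replicate 3 was far below the rest.

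Hspb8, which acts with Bag3 in the removal of damaged muscle proteins, and Hspb7, a small heat shock protein of heart and skeletal muscle, are added here after their values were seen. Hspb8 had 62.7, 98.3 and 137 CPM in co-cultured C2C12 and 65.1, 86.5 and 123 CPM in control C2C12, which overlap. Hspb7 was below the filter with 45 reads in co-cultured and 17 reads in control C2C12. Among the remaining small heat shock proteins, Hspb3, Hspb6 and Hspb9 had 42, 6 and 2 reads in all C2C12 libraries. Of the 4 tested small heat shock genes, 3 had fold changes above 0 and none passed.

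Among Hsp70 genes, Hspa8 had 983, 1073 and 1220 CPM in co-cultured C2C12 and 1048, 1122 and 1439 CPM in control C2C12, with overlapping groups. Its log2 fold change was -0.14 (SE 0.09 and edgeR adjusted p = 0.50). Hspa5 had 296, 380 and 449 CPM in co-cultured C2C12 and 319, 368 and 504 CPM in control C2C12. The groups overlapped, with co-culture replicate 1 below all controls and control replicate 4 above all co-cultured libraries. The mitochondrial Hsp70 Hspa9 had 191, 359 and 453 CPM in co-cultured C2C12 and 211, 293 and 378 CPM in control C2C12. Of 5 tested Hsp70 genes, 2 were below 0 and none passed.

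Hsph1, the Hsp110 exchange factor for Hsp70, was close to the filter with 26.4, 43.8 and 63.4 CPM in co-cultured C2C12 and 24.8, 47.1 and 88.8 CPM in control C2C12. The groups overlapped over nearly their whole range.

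The mitochondrial chaperonin overlapped between the groups. Hspe1 had 528, 593 and 649 CPM in co-cultured C2C12 and 556, 620 and 637 CPM in control C2C12. Its divergently transcribed neighbour Hspd1, the Hsp60 subunit, had 199, 260 and 350 CPM in co-cultured C2C12 and 231, 262 and 302 CPM in control C2C12. Both genes overlapped between the groups, and Hspe1 had a log2 fold change of -0.05 (SE 0.08 and edgeR adjusted p = 0.93). In all C2C12 libraries Hspe1 had 2015 reads and Hspd1 had 850. Divided by transcript length, which differs between them, they stood at 786 and 106 CPM per kb.

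The J-domain genes gave 12 tested members in C2C12, of which 3 were above 0 and none passed. Dnaja2, a cytosolic Hsp70 partner, had 76.9, 97.3 and 131 CPM in co-cultured C2C12 and 104, 132 and 159 CPM in control C2C12 (log2 fold change -0.36, SE 0.17 and edgeR adjusted p = 0.33). Dnajc15, a mitochondrial import protein related to Dnajc19, had 82.6, 89.3 and 106 CPM in co-cultured C2C12 and 66.0, 109 and 164 CPM in control C2C12 (log2 fold change -0.37, SE 0.19 and edgeR adjusted p = 0.37). Both pairs of groups overlapped. Dnajc3, an ER member with the ER stress element that is named here after its values were seen, was below the filter with 56 reads in co-cultured and 88 reads in control C2C12. When control replicate 4 was left out it entered the test with a log2 fold change of -1.04 and passed (edgeR adjusted p = 0.043).

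Dnaja1 was spread widely, with 369, 468 and 594 CPM in co-cultured C2C12 and 322, 519 and 763 CPM in control C2C12. Dnajb6 had 139, 205 and 272 CPM in co-cultured C2C12 and 124, 241 and 334 CPM in control C2C12. For both, the co-cultured libraries lay inside the control range. Dnajc19 and Dnajc8, a J-domain protein of the spliceosome, were the best covered DnaJC genes with 722 and 775 reads. Below the filter, Dnaja3, a mitochondrial J-domain protein, had 23 reads in co-cultured and 22 in control C2C12. Dnajb11, a partner of Hspa5 in the ER, had 63 reads in co-cultured and 78 in control C2C12, and Dnajb12 of the ER membrane had 68 reads in co-cultured and 48 in control C2C12.

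The CCT genes took 0.148 ± 0.008% of reads in co-cultured C2C12 and 0.156 ± 0.022% in control C2C12 (SD, n = 6 each). Of 8 tested genes 6 were below 0 and none passed, with a median log2 fold change of -0.09. Cct6a had the smallest p-value among them, with 139, 190 and 246 CPM in co-cultured C2C12 and 169, 210 and 331 CPM in control C2C12. The groups overlapped, and the log2 fold change was -0.37 (SE 0.17 and edgeR adjusted p = 0.33). Cct4, the best covered subunit, had 291, 295 and 339 CPM in co-cultured C2C12 and 254, 277 and 343 CPM in control C2C12, again with overlap. Cct7, Cct2 and Cct5 also overlapped: Cct7 had medians of 224 CPM in co-cultured and 237 CPM in control C2C12. Cct2 had medians of 157 and 158 CPM, and Cct5 of 188 and 206 CPM, in co-cultured and control C2C12.

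At the transcript level, 36 chaperone transcripts entered the C2C12 test and none passed, where 0.387% of 2586 transcripts did (0.309% higher and 0.0773% lower). The Hsp90 transcripts again had the smallest p-values: the log2 fold change was -0.44 for Hsp90aa1-202 (SE 0.11 and edgeR adjusted p = 0.12), -0.41 for Hsp90ab1-201 (SE 0.11, adjusted p = 0.13) and -0.42 for Hsp90b1-201 (SE 0.13, adjusted p = 0.16). Hsp90ab1-201 passed under DESeq2 (adjusted p = 0.046). These share their reads with the gene counts and are no separate evidence. Of 39 chaperone genes with at least 100 reads in C2C12, 26 had over 90% of their reads on 1 transcript.

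Of the 39 genes above, 3 had under 60% of their reads on the leading transcript, Dnajb6, Hspb11 and Hsph1. Hspb11 reads fell on Hspb11-202 (57.7%) and Hspb11-201 (41.5%). Those of Hsph1 fell on Hsph1-211 (58.8%) and Hsph1-201 (36.6%). Dnajb6 reads fell on Dnajb6-203 (40.1%), Dnajb6-201 (33.1%) and Dnajb6-212 (24.9%), the last of only 505 bases. The share of Dnajb6-203 was 46.0 ± 10.9% in co-cultured and 33.1 ± 9.5% in control C2C12 (SD, n = 6 each), and the ranges overlapped. Hspa5 reads fell on Hspa5-202 (72.3%) and on the longer Hspa5-201 (27.5%). Hsp90aa1-202 held 87.4% of Hsp90aa1 reads.

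The genes that work with chaperones were followed by a list of 74 co-chaperones, prefoldins, ER folding factors and heat shock factors. Of these, 72 had C2C12 reads, 36 were tested and 0 passed in either direction, with 15 above and 21 below 0 and a median log2 fold change of -0.04. Unc45b, the myosin co-chaperone of Hsp90, had the smallest p-value, with 244 ± 50 CPM in co-cultured and 166 ± 36 CPM in control C2C12 (SD, n = 6 each). Its log2 fold change was 0.53 (SE 0.16 and edgeR adjusted p = 0.091), opposite in sign to the Hsp90 genes. Canx, the ER lectin calnexin, followed with -0.49 (SE 0.16 and edgeR adjusted p = 0.13). The next were Ahsa1, an activator of the Hsp90 ATPase (0.25), Pfdn4, a prefoldin subunit (-0.37), Selenos of ER degradation (0.34) and Calr, calreticulin (-0.25), all with edgeR adjusted p of 0.37 or more.

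In NSC34 the depth allowed 49 genes to enter the test of co-culture against control, and no chaperone was among them. None of the 49 passed (0% called), and 1 had an unadjusted p under 0.05 in edgeR. The 51 members with NSC34 reads had 866 reads together, of which 10 members had 1 read each and 22 had 10 or more. With no filter, edgeR tested all 51 and none passed, the smallest adjusted p being 0.52.

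The NSC34 counts are given as sums with exact 95% intervals, which cover counting error only. Hspa8 had 1854 CPM (1512 to 2251) in co-cultured NSC34 and 2270 CPM (1590 to 3141) in control NSC34. Hsp90ab1 had 1163 CPM (896 to 1486) in co-cultured and 1261 CPM (770 to 1947) in control NSC34. The intervals overlap for both genes, which is not a test of a difference. With no filter, edgeR gave log2 fold changes of 0.31 for Hspa8 and 0.34 for Hsp90ab1 (edgeR adjusted p = 0.68 and 0.69), so no change was detected at this depth. Both fold changes are opposite in sign to the CPM, which were lower in co-culture. The median of all genes in that fit is not given here, so its fold changes, that of Hsp90aa1 below included, cannot be read against it. Hspe1 had 800 CPM (44 reads) in co-cultured and 1072 CPM (17 reads) in control NSC34. Hsp90aa1 had 25 reads spread over all 6 co-cultured libraries (454 CPM, 294 to 671) and 2 reads in 1 control library (126 CPM, 15.3 to 455). With no filter, edgeR gave it a log2 fold change of 2.15 (unadjusted p = 0.015 and edgeR adjusted p = 0.52), and it did not pass.

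**Figure D3:**
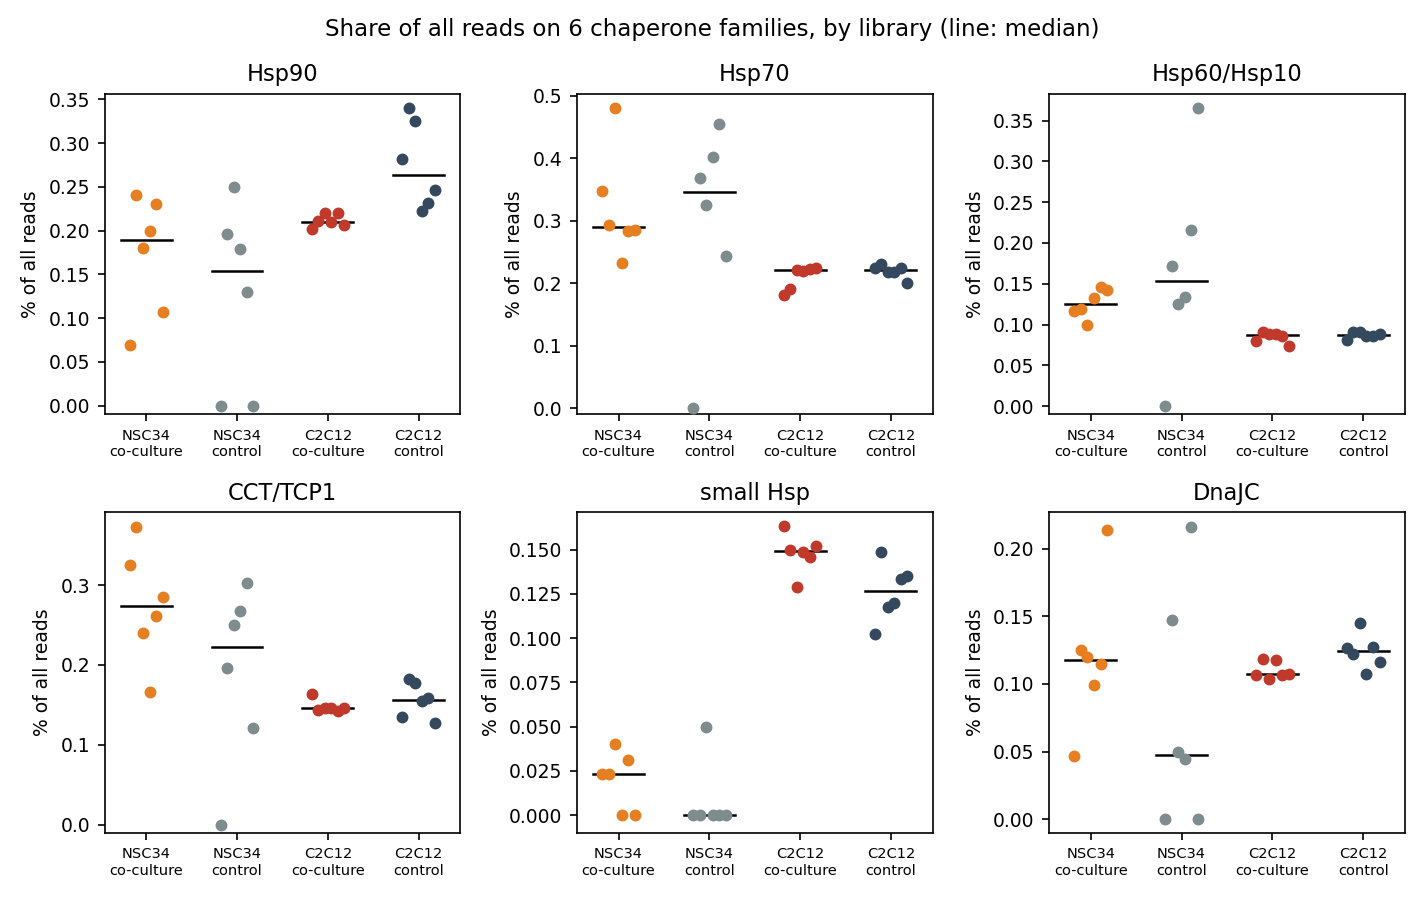
Share of all reads (%, vertical axes) on 6 chaperone families in each library, with the median as a line, for NSC34 and C2C12 in co-culture and control. Small heat shock proteins are near 0 in NSC34 and between 0.103% and 0.163% in C2C12, and CCT lies higher in co-cultured NSC34 (0.166% to 0.373%) than in co-cultured C2C12 (0.142% to 0.163%), while the NSC34 control library of 88 reads lies at 0 throughout.

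The lines were then compared, in all 24 libraries, with NSC34 over C2C12. Each line was deposited as a table of its own, so line and table cannot be told apart. The scaling shifted all genes: the median log2 fold change over 1328 tested genes was -0.94 between the controls and -0.38 between the co-cultures, and members are read against it. Between the controls, 23 members were tested, of which 0 passed as higher and 3 as lower, where 5.8% and 34.6% of all genes passed (40.4% either way). The members' median was -0.43, above the median of all genes. Between the co-cultures, 3 passed as higher and 3 as lower, where 16.9% and 35.3% of all genes passed (52.3% either way), and the members' median was 0.23. With library totals for scaling the counts were 2 higher and 1 lower between the controls and 9 higher and 1 lower between the co-cultures. With RLE size factors they were 0 higher and 1 lower between the controls and 6 higher and 3 lower between the co-cultures.

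Small heat shock proteins separated the lines. Hspb1 had 0 of 70865 NSC34 reads and 3490 of 3309635 C2C12 reads (1054 CPM), and the C2C12 rate would have given 75 reads in NSC34. Against the floor of 3 reads over the line, the level was at least 24.9-fold higher in C2C12. It passed as lower in NSC34 in both states, with edgeR adjusted p of 5.7e-07 between the controls and 5.8e-11 between the co-cultures. The same held in all 30 settings run for each. Hspb1 entered these tests through its C2C12 reads alone, and every setting used the same counts of 0. The calls are therefore no support beyond the counts above. Hspb2 had 0 reads in NSC34 and 389 in C2C12, at least 2.78-fold higher in C2C12. Hspb3, Hspb6, Hspb7 and Hspb9 also had 0 reads in NSC34, but at the C2C12 rates at most about 1 read of each would have been there.

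The family was not wholly missing from NSC34. All 8 Hspb8 reads of NSC34 were in co-culture, at 145 CPM in co-cultured NSC34 and 108 CPM in co-cultured C2C12, a ratio of 1.35 (0.57 to 2.70). Control NSC34 had 0 Hspb8 reads, which allows up to 189 CPM, and control C2C12 had 100.2 CPM. Hspb8 was below the filter between the lines, and it passed as lower between the controls with no filter (edgeR adjusted p = 0.0067) and in the 6 fits that each left out a co-cultured NSC34 library (edgeR adjusted p = 0.034 to 0.042). Hspb11 had 90.9 CPM (5 reads) in co-cultured NSC34 and 131 CPM in co-cultured C2C12, and 126 CPM (2 reads) in control NSC34 and 106 CPM in control C2C12. It did not pass in either state, but passed as lower between the co-cultures with no filter (edgeR adjusted p = 0.0030) and without NSC34 co-culture replicate 2 (edgeR adjusted p = 0.038). The median of all genes in the no-filter fits is not given here, so the no-filter calls of Hspb8 and Hspb11 cannot be read against it. Cryab, a small heat shock relative outside the symbol rule and one of the eye lens crystallins, had 2 reads in NSC34 and 3989 in C2C12.

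The CCT genes took larger shares of pooled reads in NSC34. The family took 0.322% of pooled reads (0.276 to 0.373) in co-cultured NSC34 and 0.148% (0.142 to 0.154) in co-cultured C2C12. These intervals cover counting error only. By library, the mean in co-cultured NSC34 was 0.275 ± 0.071% (SD, n = 6), and co-culture replicate 2 stood highest at 0.373%. The co-cultured libraries did not overlap, but the lowest of NSC34 (0.166%) was close to the highest of C2C12 (0.163%). Hsp70 and Hsp60/Hsp10 shares were also wholly higher in co-cultured NSC34, and small heat shock shares wholly lower. How many genes separate these groups was not counted. Between the controls the pooled CCT shares were 0.246% (0.175 to 0.336) in NSC34 and 0.166% (0.160 to 0.173) in C2C12. By library the controls overlapped, with means of 0.190 ± 0.112% in NSC34 and 0.156 ± 0.022% in C2C12 (SD, n = 6 each). NSC34 control replicate 6 was at 0.122% and replicate 1, of 88 reads, at 0, both below the lowest C2C12 control (0.128%). Between the co-cultures, Cct2 (chr10:117051001-117063814) had a log2 fold change of 1.18 (SE 0.33 and edgeR adjusted p = 0.0031), Cct5 (chr15:31590800-31601804) of 0.96 (SE 0.34, adjusted p = 0.018) and Cct6a of 0.86 (SE 0.36, adjusted p = 0.044). All 8 tested subunits were above 0 between the co-cultures, with a family median of 0.68 beside -0.38 for all genes. Between the controls, 7 of the 8 were below 0 and none passed, with a family median of -0.29 beside -0.94 for all genes. With no filter, Cct4 and Cct6a passed as lower in NSC34 between the controls (log2 fold changes -1.66 and -1.68, edgeR adjusted p = 0.013 and 0.023). By CPM both were higher in control NSC34, Cct4 at 378 against 309 CPM and Cct6a at 315 against 271 CPM in control C2C12. The median of all genes in the no-filter fit is not given here, so these calls do not show lower levels.

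The CCT calls between the co-cultures depended on single libraries. Co-culture replicate 2 had 42.8% of all NSC34 reads, and it held 19 of the 30 Cct2 reads and 17 of the 35 Cct5 reads. Without it, the log2 fold change between the co-cultures was 0.00 for Cct2, 0.12 for Cct5 (edgeR adjusted p = 0.86) and 0.72 for Cct6a (adjusted p = 0.20), and none passed. The median of all genes in that fit is not given here, so these values cannot be read against it. CPM without that replicate are given below. The call of Cct5 was also lost without NSC34 control replicate 1, 2, 3, 4 or 5 and without co-culture replicate 1 or 5 (lowest log2 fold change 0.73). That of Cct6a was lost without any 1 of the 12 NSC34 libraries (lowest log2 fold change 0.54). With no filter, Cct5 and Cct6a had log2 fold changes of -0.10 and -0.21, although their CPM were higher in co-cultured NSC34. Cct5 had 473 CPM there against 181 CPM in co-cultured C2C12, and Cct6a 436 against 190 CPM. Over all libraries, the ratio of CPM was 2.60 (1.74 to 3.76) for Cct2, 2.46 (1.70 to 3.46) for Cct5 and 1.83 (1.30 to 2.51) for Cct4. Without NSC34 co-culture replicate 2, Cct2 had 271 CPM in NSC34, Cct5 444 CPM and Cct4 395 CPM, beside 163, 200.3 and 308 CPM in C2C12. Cct3 had a ratio of 1.32 (0.67 to 2.32) over all libraries, and 123 CPM in NSC34 without that replicate, beside 129 CPM in C2C12.

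**Figure D4:**
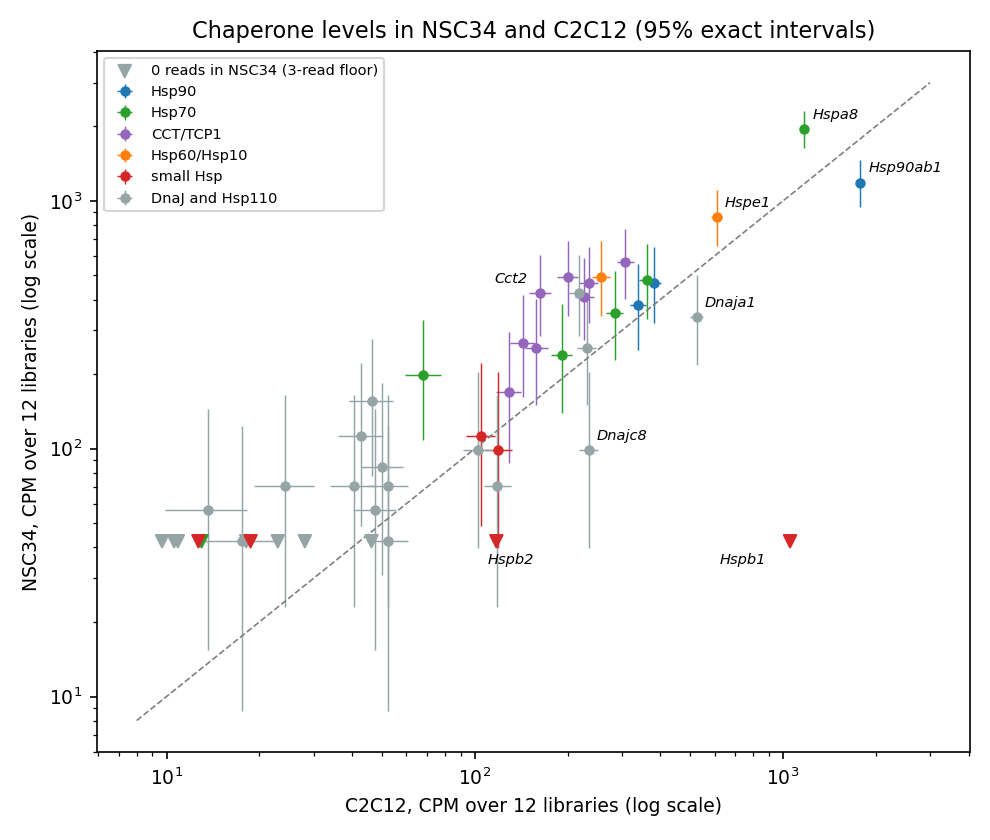
CPM over the 12 NSC34 libraries (vertical axis, log scale) against CPM over the 12 C2C12 libraries (horizontal axis, log scale) for members with at least 3 NSC34 reads, with exact 95% intervals and the line of equal levels. Triangles stand at the 3-read floor of 42.3 CPM for members with 0 NSC34 reads and at least 30 C2C12 reads, and Hspb1 lies farthest from the line at 1054 CPM in C2C12.

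Hsp90ab1 passed as lower in NSC34 in both states. It had 1261 CPM in control NSC34 and 2121 CPM in control C2C12 (log2 fold change -1.43, SE 0.33 and edgeR adjusted p = 0.00092), and 1163 CPM in co-cultured NSC34 and 1503 CPM in co-cultured C2C12 (log2 fold change -0.78, SE 0.23 and edgeR adjusted p = 0.0054). Relative to the median of all genes these are -0.49 and -0.40, and neither passed with library totals for scaling (edgeR adjusted p = 0.20 for both). Hsp90aa1 passed as lower between the controls (log2 fold change -2.40, SE 0.73 and edgeR adjusted p = 0.0094), on 2 NSC34 reads, and not with RLE size factors (adjusted p = 0.081) or library totals (adjusted p = 0.15). With RLE size factors the call of Hsp90ab1 between the controls was also lost (edgeR adjusted p = 0.081). Dnajc8 passed as lower between the co-cultures, with 5 reads in NSC34 (log2 fold change -1.58, SE 0.51 and edgeR adjusted p = 0.010), and not with library totals (adjusted p = 0.070). It was below the filter, and so not tested, in the 12 fits that each left out a C2C12 library. The Hsp90 family took 0.211% of pooled reads in co-cultured NSC34 and also in co-cultured C2C12. In control NSC34 it took 0.177% of pooled reads, beside 0.298% in control C2C12. By library, the means were 0.171 ± 0.069% in co-cultured NSC34 and 0.2115 ± 0.0074% in co-cultured C2C12 (SD, n = 6 each). The controls had means of 0.126 ± 0.105% in NSC34 and 0.274 ± 0.049% in C2C12. The deepest NSC34 library, co-culture replicate 2, stood highest of its group at 0.241%.

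Hsp70 genes took larger shares in NSC34, 0.309% (0.264 to 0.359) in co-culture and 0.378% (0.289 to 0.487) in control, beside 0.205% and 0.223% in co-cultured and control C2C12. Hspa8 carried most of that, with a ratio of 1.66 (1.39 to 1.97) over all libraries, and it did not pass between the co-cultures (log2 fold change 0.39, edgeR adjusted p = 0.066). This value turned on the settings: Hspa8 passed as higher in NSC34 with RLE size factors (0.62, edgeR adjusted p = 0.0068), with library totals (0.86, adjusted p = 9.8e-05) and in the 12 fits that each left out a C2C12 library (0.51 to 0.58). It passed as lower with no filter (-0.69, edgeR adjusted p = 0.011), and had -0.04 without NSC34 co-culture replicate 2 (adjusted p = 0.91). Between the controls it passed as higher with library totals (0.98, edgeR adjusted p = 0.0063) and as lower with no filter (-1.11, adjusted p = 0.0013). The CPM of Hspa8 were higher in NSC34 in both states, at 1854 against 1090 in co-culture and 2270 against 1269 in control. The medians of all genes in the fits with no filter and without NSC34 co-culture replicate 2 are not given here. Hspe1 had 861 CPM (658 to 1106) in NSC34 and 609 CPM (582 to 636) in C2C12, and Hspd1 had a ratio of 1.92 (1.33 to 2.70). Dnajc6, the neuronal clathrin-uncoating protein auxilin, had 4 reads in 3 co-cultured NSC34 libraries and 0 in C2C12, and is named after its values were seen.

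The co-culture effect was compared between the lines as an interaction. None of 1328 genes passed (0% called, and 160 had an unadjusted p under 0.05 in edgeR; DESeq2 called 1 gene, which was no chaperone), and none of the 23 tested members passed. The smallest p-value among them was that of Hsp90aa1, with a difference of log2 fold changes of 2.63 (SE 0.81 and edgeR adjusted p = 0.14), beside a median of 0.47 over all genes. It rests on the 2 reads of control NSC34.

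Sequence shared with other genes could divert reads of some members. Hsp90aa1 shares 2255 bases at 99.5% identity with the pseudogene Gm12346, and Hspa8 shares 1941 bases with Gm15459. Those pseudogenes had 1 and 3 reads in C2C12, beside 1123 and 3875 reads of the members. Genes that share sequence with Hspb1 had 0 reads in C2C12. Their reads in NSC34 are not given here, so diversion of Hspb1 reads there was not tested. The sources used here do not state whether counting used strand, so reads from sequence shared with genes on the opposite strand cannot be told apart. Among these genes, Psph shares 452 bases with Cct6a and had 148 C2C12 reads, beside 750 of Cct6a. Smu1 shares 608 bases with Dnaja1 (239 and 1737 reads), and Acat2 shares 445 bases with Tcp1 (97 and 473 reads).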

How the data were processed

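RNA of NSC34 and C2C12 cells was sequenced on a Nanopore MinION, per the labels' protocols, against GRCm38, per the submitters' processing notes; for the aligner, the counter and strand use, not given in the sources used here. Each line has 1 table of raw read counts per Ensembl transcript, as deposited. Transcripts were matched to GENCODE M21 without version (10374 of 10427 in NSC34, 37415 of 37677 in C2C12) and summed per gene. Genes were tested with edgeR 4.0.16 in R 4.3.3 (filterByExpr, TMM, quasi-likelihood F test, Benjamini-Hochberg adjustment over all genes tested, threshold 0.05), in each line alone and in all 24 libraries for line contrasts and the interaction. The filtered tests covered 28.2% of NSC34 and 88.3% of C2C12 reads. They were also run on simulated data, the outcome of which is not given here and is no support for the calls. CPM are per 1000000 of all reads of a library. Intervals are exact Clopper-Pearson at 95%, and floors 3 reads. Alternatives used limma 3.58.1 and DESeq2 1.42.0 (positive-count size factors); shared sequence was found with BLAST 2.17.0 (at least 300 bases at 95% identity). Members and lists were chosen with earlier results of these data known. Named were the 3 members with most C2C12 reads per family, those past a threshold, and those with the smallest p-values (8 in C2C12, 6 in each line contrast, 5 transcripts); for the co-worker list, the 6 smallest.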

Additional observations from a re-analysis of the deposited data

Results flagged for a closer look

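In 72 groups of 6 C2C12 libraries (26 members' CPM and family shares), 4 held a library whose distance to its nearest neighbour exceeded 0.625 of the group's range. Chance alone gives about 1 in 20. Hspb2 was at 27.9 CPM in co-culture replicate 3, with the other 5 co-cultured libraries at 106 to 152 CPM (0.630 of the range). The CCT share was 0.163% in co-culture replicate 1, above the next at 0.147% (0.787 of the range). Hsp90b1 was at 565 CPM in control replicate 2, above the next control at 430 CPM (0.630 of the range). Cct2 was at 193 CPM in the same control, above the next at 160 CPM (0.636 of the range). Control replicate 2 was the deepest library, with 658075 reads.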

How the results depend on the processing

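In C2C12, the count of chaperone genes past the threshold was 0, and 1 (Hsp90ab1) with library totals and with DESeq2; leaving out 1 library gave 0 to 2. For transcripts it was 0, and 1 with DESeq2, and 0 to 0 without single libraries. The replicate numbers did not pair libraries (correlations of same-numbered deviations from -0.23 to 0.33), and the fit with the replicate block gave 0 chaperones in both lines and for transcripts, with 26 C2C12 genes called in place of 37 and 1 transcript in place of 10. In NSC34 co-culture and for the interaction, 0 members passed under every alternative and in every fit without 1 library. Between the controls of the lines, 3 members passed, 1 with RLE size factors, 16 with no filter, 5 with a mean count of at least 10 and 5 without libraries under 1000 reads; fits without 1 library gave 3 to 10. Between the co-cultures, 6 passed, 10 with library totals and 20 with no filter (1 higher and 19 lower). Fits without 1 library gave 6 to 9. The median of all genes and the share called in the no-filter fits are not given here, so their lower calls do not show lower levels. Signs turned in 5 of 726 rechecked fold changes. With no filter these were Hspe1 in C2C12 (0.035), and Cct5 (-0.10), Cct6a (-0.21) and Hspa8 (-0.69) between the co-cultures, and without NSC34 co-culture replicate 2 it was Hspa8 between the co-cultures (-0.040, in a range of -0.040 to 0.58 over the fits without 1 library). The share of all chaperones in co-cultured C2C12 was 1.05% without mitochondrial reads in the total, against 1.01%. The cause of these shifts was not tested. In NSC34, a count of 0 allowed up to 189 CPM in control and 54.5 CPM in co-culture, which limits every value there.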
